A study of Mus musculus with 8 samples.

Results

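The interleukin-1 (IL-1) family of cytokines was examined through 10 genes of ligands, receptors and natural inhibitors: Il1a, Il1b, Il18, Il33, Il1r1, Il1rap, Il1rl1, Il1r2, Il1rn and Il18bp. They were picked as a list of gene names, with earlier results of these data known, and all 10 had a row in the deposited table of 20681 genes. The table holds poly-A RNA sequencing of whole knee joints of mice, with 4 libraries in each of the groups that the labels call control and knockout. All mice carried Acan-Cre;Loxl2 fl/fl, that is, a Cre recombinase under the aggrecan gene, which is active mainly in cartilage cells, and a floxed Loxl2, which encodes a collagen-crosslinking lysyl oxidase. The controls are described as vehicle-treated and the knockouts as conditional knockouts, without the agent given to the latter. Library names of both groups carry the letters DMM, the usual abbreviation of a knee surgery that destabilises the medial meniscus. Those names also carry LOXL2wt in the controls and LOXL2ko in the knockouts. Age, sex and time after surgery are not given in the labels, nor is it stated whether each joint came from a different animal. If the samples do not come from separate animals, the p-values measure only the spread between these samples.

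IL-1 alpha and IL-1 beta bind the receptor IL-1R1, which then recruits the shared co-receptor IL-1RAP and signals through MyD88 and IRAK kinases to NF-kB. IL-1R2 is a decoy receptor that binds the ligands without signalling, and the receptor antagonist encoded by Il1rn occupies IL-1R1 without recruiting the co-receptor. IL-33 signals through ST2 (gene Il1rl1), also with IL-1RAP, while IL-18 uses a receptor of its own and is neutralised by IL-18BP. In joints, IL-1 is known for inducing matrix-degrading enzymes in chondrocytes and synovial cells.

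Stretches before start sites of Il1r1 and Il1rn are shown because these 2 members passed the test described below, and those of Il1a and Il1b because these are the ligands of that receptor. Each runs for 250 bases up to the base before an annotated start, 5′ to 3′ on the gene's own strand, from RefSeq on GRCm38.p6. Capitals mark matches to 4 motifs searched on both strands: the NF-kB consensus, the AP-1 motif TGANTCA, the TATA box TATAAA and the PU.1 core GAGGAA.
Il1r1, first start, chr1:40224830-40225079, plus strand: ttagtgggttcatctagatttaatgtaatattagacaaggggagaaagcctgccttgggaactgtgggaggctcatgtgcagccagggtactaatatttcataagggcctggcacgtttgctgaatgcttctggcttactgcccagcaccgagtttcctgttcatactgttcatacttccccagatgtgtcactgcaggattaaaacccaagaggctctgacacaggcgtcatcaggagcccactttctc
Il1r1, second start, chr1:40266336-40266585, plus strand: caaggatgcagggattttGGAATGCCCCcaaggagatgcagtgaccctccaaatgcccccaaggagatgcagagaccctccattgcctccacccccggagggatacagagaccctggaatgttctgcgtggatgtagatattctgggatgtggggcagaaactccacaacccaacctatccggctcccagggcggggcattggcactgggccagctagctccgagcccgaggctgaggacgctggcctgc
Il1rn, first start, chr2:24336610-24336859, plus strand: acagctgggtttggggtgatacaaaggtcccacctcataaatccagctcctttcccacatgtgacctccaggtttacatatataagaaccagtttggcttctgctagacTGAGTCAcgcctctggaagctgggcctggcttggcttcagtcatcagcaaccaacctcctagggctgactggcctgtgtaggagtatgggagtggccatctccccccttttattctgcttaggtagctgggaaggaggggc
Il1rn, second start, chr2:24345041-24345290, plus strand: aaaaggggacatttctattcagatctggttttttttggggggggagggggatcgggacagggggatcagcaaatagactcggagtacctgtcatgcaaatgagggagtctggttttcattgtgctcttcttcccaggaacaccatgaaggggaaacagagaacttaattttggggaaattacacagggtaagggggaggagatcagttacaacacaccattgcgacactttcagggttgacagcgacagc
Il1a, chr2:129309973-129310222, minus strand: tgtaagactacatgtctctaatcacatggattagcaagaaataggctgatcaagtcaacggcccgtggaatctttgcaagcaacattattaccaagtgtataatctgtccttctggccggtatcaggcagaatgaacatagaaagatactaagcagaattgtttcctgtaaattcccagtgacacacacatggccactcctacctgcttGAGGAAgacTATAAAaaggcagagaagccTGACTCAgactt
Il1b, chr2:129371140-129371389, minus strand: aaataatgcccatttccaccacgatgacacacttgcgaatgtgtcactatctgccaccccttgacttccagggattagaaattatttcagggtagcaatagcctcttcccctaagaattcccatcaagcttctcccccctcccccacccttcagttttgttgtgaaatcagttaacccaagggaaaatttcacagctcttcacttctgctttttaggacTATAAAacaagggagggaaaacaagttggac

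The window at the downstream Il1r1 start held an NF-kB consensus match, GGAATGCCCC, read on the opposite strand, 232 to 223 bases before the start. The window at the upstream Il1r1 start held none of the 4 motifs. The first Il1rn window held an AP-1 match 141 to 135 bases before the start, and the second Il1rn window held no match. The other Il1rn window (chr2:24345121-24345370), which mostly overlaps the second and is not printed, held none either. The Il1a window held a PU.1 core, a TATA box 32 to 27 bases before the start and, nearest the start, an AP-1 match 12 to 6 bases before it. In Il1b the single match was a TATA box 31 to 26 bases before the start. None of these matches overlapped another. Among 15 windows covering all 10 members, the NF-kB consensus was in 1, the AP-1 motif in 2, the TATA box in 5 and the PU.1 core in 1. Among all 32851 windows of the same length, the shares were 3.9%, 6.75%, 12.4% and 23.3%. A match describes letters in the window and not a bound site.

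Values are normalised counts, that is, reads per gene divided by 1 size factor per library, and they are comparable between libraries for 1 gene. Library totals were 14938722 to 17411617 reads in the controls and 13991000 to 15990167 in the labelled knockouts. The cartilage markers Acan and Col2a1 were detected in every library, with at least 56 and 133 reads. Loxl2, the targeted gene, ranged from 282 to 1135 in the libraries labelled control and from 893 to 1518 in those labelled knockout. It was thus not lower under the knockout label (limma, log2 difference 1.44, SE 0.40, adjusted p = 0.0294), and neither edgeR (adjusted p = 0.0669) nor DESeq2 (adjusted p = 0.0659) called it higher. The reads counted over the whole gene do not show whether the floxed exons were removed. It no longer passed when control replicate 1, 2 or 4, or replicate 2 or 4 of the other group, was dropped (limma, adjusted p = 0.0663 to 0.0847). Groups are therefore called by their labels, and each direction below is that of the libraries labelled knockout against those labelled control.

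Of the 10 members, Il1r1 and Il1rn rose in the labelled knockout libraries, and none fell (limma; none was lower at an unadjusted p under 0.05 either, nor by edgeR or DESeq2). Il1rn, the receptor antagonist, was 2.41-fold higher on the fitted scale, and Il1r1, the signalling receptor, was 2.16-fold higher. Il18, Il33, Il1rap, Il1rl1 and Il18bp were tested and did not pass. Il1a, Il1b and Il1r2 were too low to test. The test was limma on log2(normalised count + 1), which understates the change of low genes, over the 14949 genes that reached 10 in at least 4 of 8 libraries, and a gene was called at an adjusted p under 0.05. Among all genes tested, 11.6% were called higher and 11.6% lower, 23.2% in all, so calls as such were common in these data. On recovered reads edgeR and DESeq2 called the same 2 members, where they called 11.3% and 14.3% of all genes higher and 10.9% and 13.3% lower. Without control replicate 3, the control highest in Loxl2 and in 6 of the 10 members, 3 members were called, Il1rap being the third.

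**Figure D1:**
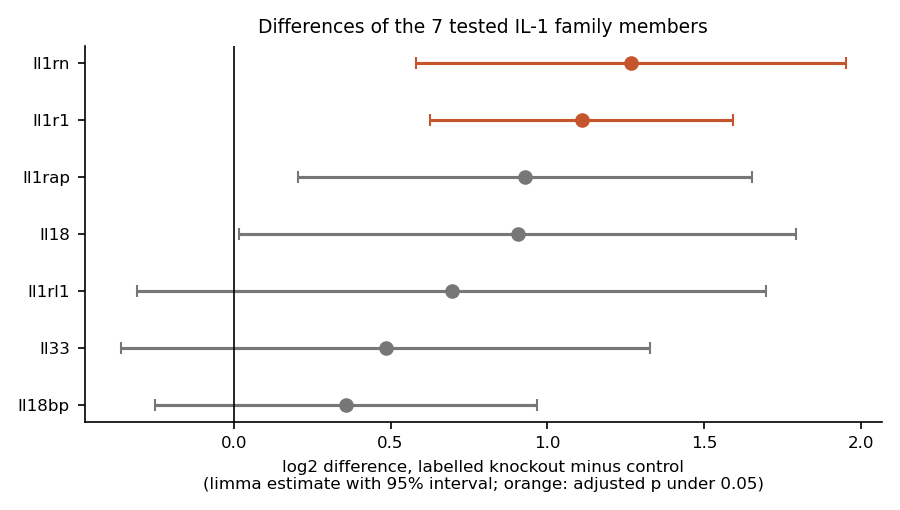
Log2 difference, labelled knockout minus control, of the 7 tested members on the horizontal axis, as the limma estimate with its 95% interval; orange marks an adjusted p under 0.05. The intervals of Il1rn, Il1r1, Il1rap and Il18 lie above 0, and of these Il1rn and Il1r1 were called after adjustment.

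All 10 members had a log2 difference above 0, with a median of 0.59 over all 10 and of 0.91 over the 7 tested, beside a median of 0.00 over all genes tested. These are descriptions, and the values of the 3 untested members carry large errors. Each tested member reached a value of 10 in at least 3 control libraries. Il1rn, which was called, and Il18 did so in 3 controls, fewer than the 4 libraries the filter needs. Those 2 members therefore entered the test only with the labelled knockout libraries counted. Il1r1, Il1rap and Il1rn had groups that did not overlap, with the labelled knockout higher, as in 11.7% of all genes tested; 13.4% did not overlap with the labelled knockout lower, 25.1% in all. In these bulk samples, fewer cells of a type and less RNA per cell cannot be told apart.

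**Figure D2:**
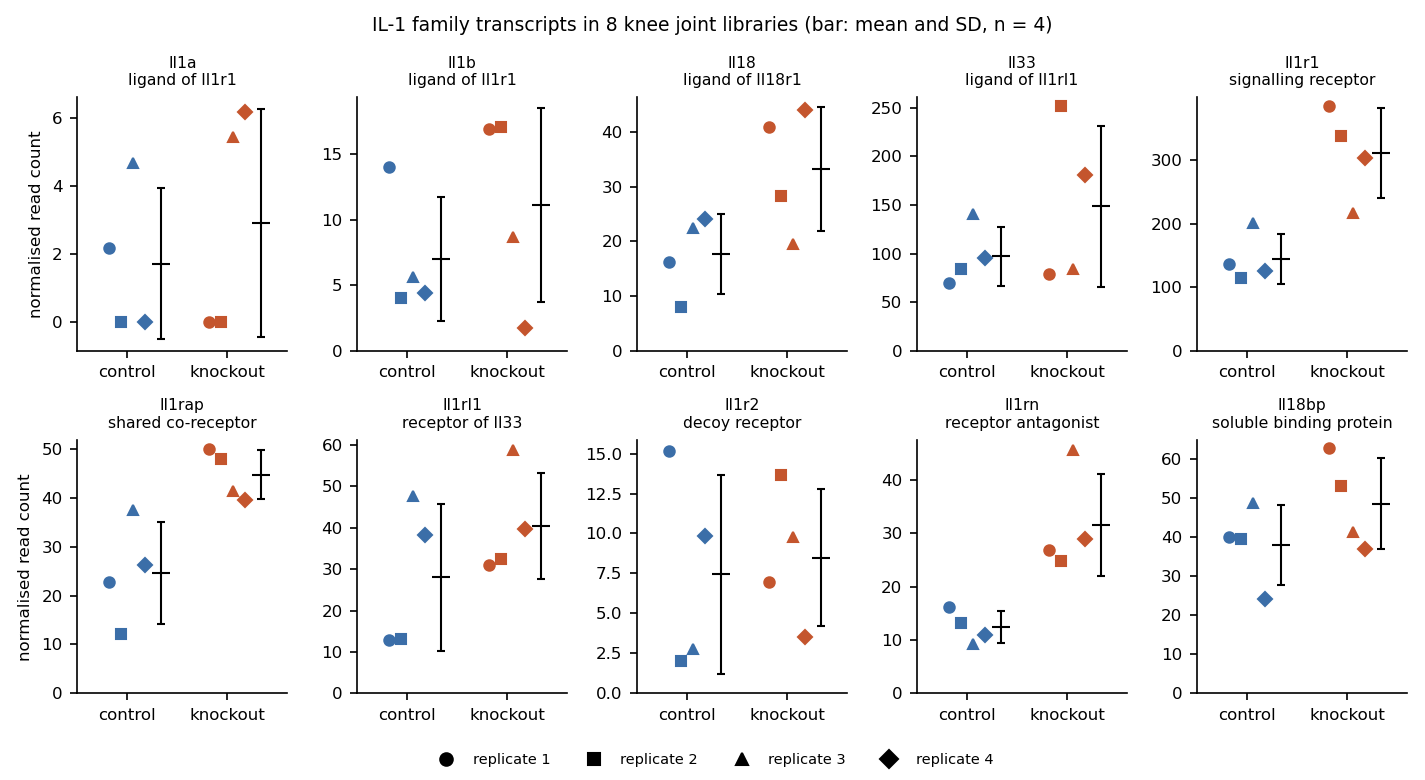
Normalised counts of the 10 members in each of the 8 libraries, 1 panel per gene with an axis of its own. Symbols mark replicate numbers, which were not treated as pairs in the main test, and bars give the mean and SD of 4 libraries. In the panels of Il1r1, Il1rap and Il1rn every labelled knockout point lies above every control point, and no value of Il1a, Il1b or Il1r2 exceeds 17.1.

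Among the ligands, Il1a, whose product is active as synthesised and is released from damaged cells, was barely detected. It gave 2, 0, 5 and 0 reads in the control libraries and 0, 0, 5 and 7 reads in the labelled knockout libraries. Where it was at 0, a count of 3 reads, the limit that a count of 0 allows, would be a normalised count of 3.03 and 3.29 in control replicates 2 and 4, and 2.99 and 2.57 in labelled knockout replicates 1 and 2, for counting error only. High and low libraries were mixed in both groups, and no difference was detectable at this depth.

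Il1b, whose precursor is cut by caspase-1, was at 14.1, 4.04, 5.61 and 4.38 in the controls and at 17.0, 17.1, 8.70 and 1.76 in the labelled knockouts. Those values rest on 2 to 20 reads per library. The groups overlapped: the lowest library of all was a labelled knockout, and 1 control was above 2 of the labelled knockouts. Means were 7.02 ± 4.74 and 11.1 ± 7.38 (SD, n = 4 each), a difference of 0.42 on the log2 scale (two-sided exact permutation test, p = 0.629).

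Il18, a ligand that induces interferon gamma and also needs caspase-1, was at 16.2, 8.08, 22.4 and 24.1 in the controls and at 40.9, 28.2, 19.6 and 44.0 in the labelled knockouts. In the labelled knockouts 3 of 4 libraries were above the highest control, and the other lay within the control range. Its mean went from 17.7 ± 7.26 to 33.2 ± 11.3 (SD, n = 4 each), with a log2 difference of 0.91, SE 0.40, 95% interval 0.02 to 1.80. It did not pass (limma, adjusted p = 0.124), and no alternative analysis called it.

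Il33, a nuclear alarmin of stromal and endothelial cells, was at 69.2, 83.8, 140.2 and 95.3 in the controls and at 78.8, 251, 83.7 and 180.4 in the labelled knockouts. The labelled knockouts spread widely, with 2 libraries above every control and 2 inside the control range. The log2 difference was 0.48, SE 0.38, 95% interval -0.36 to 1.33 (limma, adjusted p = 0.378).

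Il1r1, the signalling receptor for both IL-1 ligands, was at 136, 114, 201 and 125 in the controls and at 385, 338, 217 and 304 in the labelled knockouts. Every labelled knockout library was above every control, with the lowest labelled knockout close to the highest control, and control replicate 3 was the highest control. The mean went from 144 ± 39.0 to 311 ± 70.7 (SD, n = 4 each), a log2 difference of 1.11, SE 0.22, 95% interval 0.63 to 1.59 (limma, adjusted p = 0.00915). It was called in all 18 alternative analyses.

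Il1rap, the co-receptor used by IL-1R1, ST2 and the IL-36 receptor, was at 22.7, 12.1, 37.4 and 26.3 in the controls and at 49.9, 47.9, 41.3 and 39.6 in the labelled knockouts. The groups did not overlap, but control replicate 3 came close to the lowest labelled knockout. The means were 24.6 ± 10.4 and 44.7 ± 4.97 (SD, n = 4 each), a log2 difference of 0.93, SE 0.32, 95% interval 0.20 to 1.65. It did not pass (limma, adjusted p = 0.0634). Without control replicate 3 it was called, at a log2 difference of 1.16 (limma, adjusted p = 0.0290).

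Il1rl1, which encodes the IL-33 receptor ST2 in a membrane and a soluble form, was at 13.0, 13.1, 47.7 and 38.3 in the controls and at 30.9, 32.5, 58.7 and 39.6 in the labelled knockouts. The controls fell into a low pair and a high pair, and the high pair lay among the labelled knockouts. The log2 difference was 0.69, SE 0.45, 95% interval -0.31 to 1.70 (limma, adjusted p = 0.285). The table gives 1 value per gene, so its forms were not separated.

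Il1r2, the decoy receptor, was at 15.1, 2.02, 2.80 and 9.86 in the controls and at 6.98, 13.7, 9.79 and 3.52 in the labelled knockouts. The highest and the lowest library were both controls. The means were 7.46 ± 6.22 and 8.49 ± 4.31 (SD, n = 4 each), a log2 difference of 0.38 (two-sided exact permutation test, p = 0.600).

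Il1rn, the receptor antagonist, was at 16.2, 13.1, 9.35 and 11.0 in the controls and at 26.9, 24.8, 45.7 and 29.0 in the labelled knockouts. All 4 labelled knockouts lay above all 4 controls, and labelled knockout replicate 3, the lowest of its group for Il1r1, was the highest for Il1rn. The mean went from 12.4 ± 2.98 to 31.6 ± 9.53 (SD, n = 4 each), a log2 difference of 1.27, SE 0.31, 95% interval 0.58 to 1.95 (limma, adjusted p = 0.0181). Behind these values stood 10 to 15 reads per control library and 27 to 42 per labelled knockout library. The call held when any 1 library was left out (limma, adjusted p = 0.0221 to 0.0470).

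Il18bp, the soluble inhibitor of IL-18, was at 40.0, 39.4, 48.6 and 24.1 in the controls and at 62.8, 53.0, 41.3 and 37.0 in the labelled knockouts. The groups overlapped, with 2 of the 4 labelled knockouts above every control. The log2 difference was 0.36, SE 0.27, 95% interval -0.25 to 0.97 (limma, adjusted p = 0.367). The span of the gene overlaps that of Numa1 on the opposite strand. Whether reads were counted by strand is not given in the sources used here, so reads of the 2 genes cannot be told apart where their exons overlap. Exon overlap was not examined. The same holds for Il18 with Bco2 and Tex12, Il1b with Il1bos, Il1a with Gm14023, Il1r2 with Gm16894, and Il1rap with Gm20319. Gm37347 overlaps the span of Il1r2, and Gm38070 that of Il1r1, on the same strand, where counting by strand would not separate them. Il1rn, Il33 and Il1rl1 overlap no other annotated gene.

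Inhibitor and target were also compared within libraries as log2 ratios, with 1 added to each value. The values were not divided by exon length, so the sign of a ratio does not show which transcript was more abundant. Only the groups are compared. Il1rn over Il1b was 0.87 ± 0.57 in the controls and 1.71 ± 1.40 in the labelled knockouts (SD, n = 4 each; two-sided exact permutation test, p = 0.343). Il1r2 over Il1r1 was -4.40 ± 1.29 and -5.13 ± 0.84 (SD, n = 4 each; two-sided exact permutation test, p = 0.371). Il18bp over Il18 was 1.12 ± 0.88 and 0.57 ± 0.57 (SD, n = 4 each; two-sided exact permutation test, p = 0.314). The 3 ratios had an adjusted exact permutation p of 0.371 each, and the smallest p this design allows is 0.0286. None of the ratios passed, which does not show that they were alike in the groups.

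Levels of different genes were compared per kilobase of exon. On that scale Il33 was highest in the controls at 33.7 ± 10.6, ahead of Il1r1 at 22.6 ± 6.13, Il18 at 17.2 ± 7.04 and Il18bp at 12.6 ± 3.37 normalised counts per kilobase (SD, n = 4 each). The ranges of each neighbouring pair in this order overlapped. These 4 genes held the top 4 places in every library. In the labelled knockouts the order of these 4 was the same, with Il33 at 51.5 ± 28.8 and Il1r1 at 48.9 ± 11.1 (SD, n = 4 each). The other members were lower per kilobase, from 0.87 ± 1.13 for Il1a to 4.07 ± 2.57 for Il1rl1 in the controls (SD, n = 4 each). The antagonist Il1rn was at 2.24 ± 0.54 and 5.71 ± 1.72, and Il1b, whose product it competes with at IL-1R1, at 3.68 ± 2.49 and 5.84 ± 3.87 (SD, n = 4 each). These 2 genes lay within their spread of each other in the controls and in the labelled knockouts.

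On mm10, the receptor genes Il1r2 (chr1:40074079-40125231), Il1r1 (chr1:40225080-40317257) and Il1rl1 (chr1:40429570-40465415) lie on the plus strand within 391337 bases, with Il1rl2, the IL-36 receptor, between Il1r1 and Il1rl1. Il1rl2 rose as well, from 25.3 ± 6.50 to 65.4 ± 13.0 (SD, n = 4 each; limma, log2 difference 1.35, SE 0.26, adjusted p = 0.00911), with no overlap between groups. Map4k4, a kinase gene beside Il1r2, rose from 547 ± 177 to 1010 ± 129 (SD, n = 4 each; limma, log2 difference 0.93, SE 0.21, adjusted p = 0.0150). At the other end of the cluster Il18rap, a subunit of the IL-18 receptor, did not pass (limma, log2 difference -0.07, adjusted p = 0.952), and Il18r1, its other subunit, was too low to test. Of the 5 tested genes from Map4k4 to Il18rap, 3 were called higher, beside 11.6% of all genes tested: Map4k4, Il1r1 and Il1rl2.

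**Figure D3:**
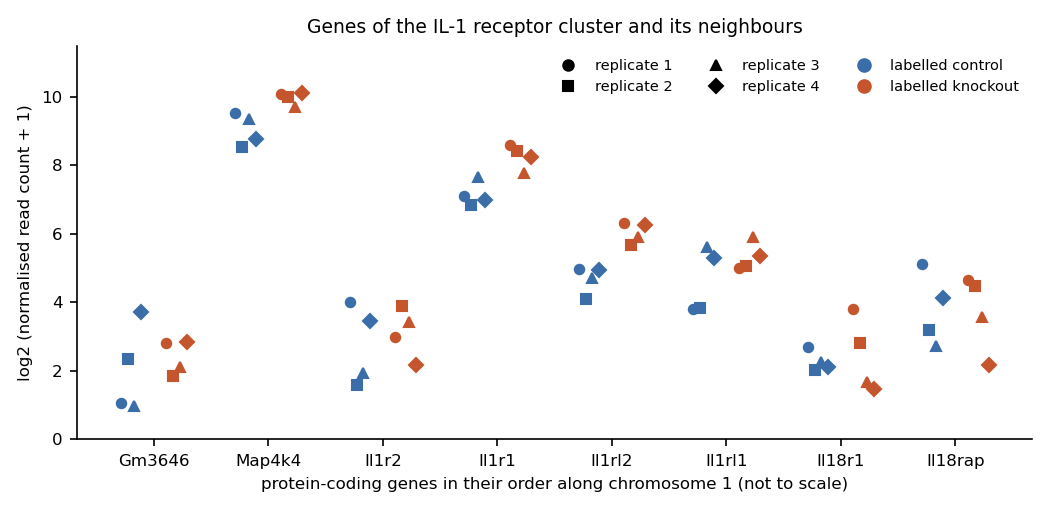
Values per library, as log2(normalised count + 1), of the chromosome 1 receptor genes and their neighbours, in genomic order and not to scale; colours mark the labelled groups and symbols the replicates. The groups are separate for Map4k4, Il1r1 and Il1rl2 and overlap for the other 5 genes.

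Il1a (chr2:129299610-129309972) and Il1b (chr2:129364570-129371139) lie 54598 bases apart on the minus strand, while Il1rn (chr2:24336853-24351494) lies on the plus strand far from both. Sirpa, a myeloid inhibitory receptor and the next gene of the table beyond Il1b, with F830045P16Rik annotated between them, rose from 557 ± 110 to 1275 ± 231 (SD, n = 4 each; limma, log2 difference 1.20, SE 0.17, adjusted p = 0.00422). Slc20a1, Ckap2l and, beside Il1rn, Psd4 did not pass (limma, adjusted p = 0.156, 0.0713 and 0.224). The remaining members are Il18 on chromosome 9 (50554827-50581840), Il33 on chromosome 19 (29925114-29960718), Il1rap on chromosome 16 (26581704-26730117) and Il18bp on chromosome 7 (102014885-102018690).

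Of 71 further genes of the pathway in 5 lists, 64 were in the table and 49 were tested, of which 16 were called higher and 2 lower by limma. Among all genes tested, limma called 11.6% higher and 11.6% lower. With edgeR 12 of the pathway genes were higher and 1 lower, and with DESeq2 17 and 3. The replicate block gave 11 higher and 1 lower, and quantile normalisation 8 and 1. By limma without control replicate 3, 14 were called higher and 1 lower. Other left-out libraries moved this count further: 8 genes were called higher without control replicate 2, 9 when replicate 2 of the labelled knockouts was dropped, and 6 each when their replicate 1 or replicate 4 was. The plot of pathway differences shows each list. The list of other IL-1 family ligands and receptors had 3 of its 11 genes tested, with Il1rl2 higher and a median log2 difference of -0.07.

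**Figure D4:**
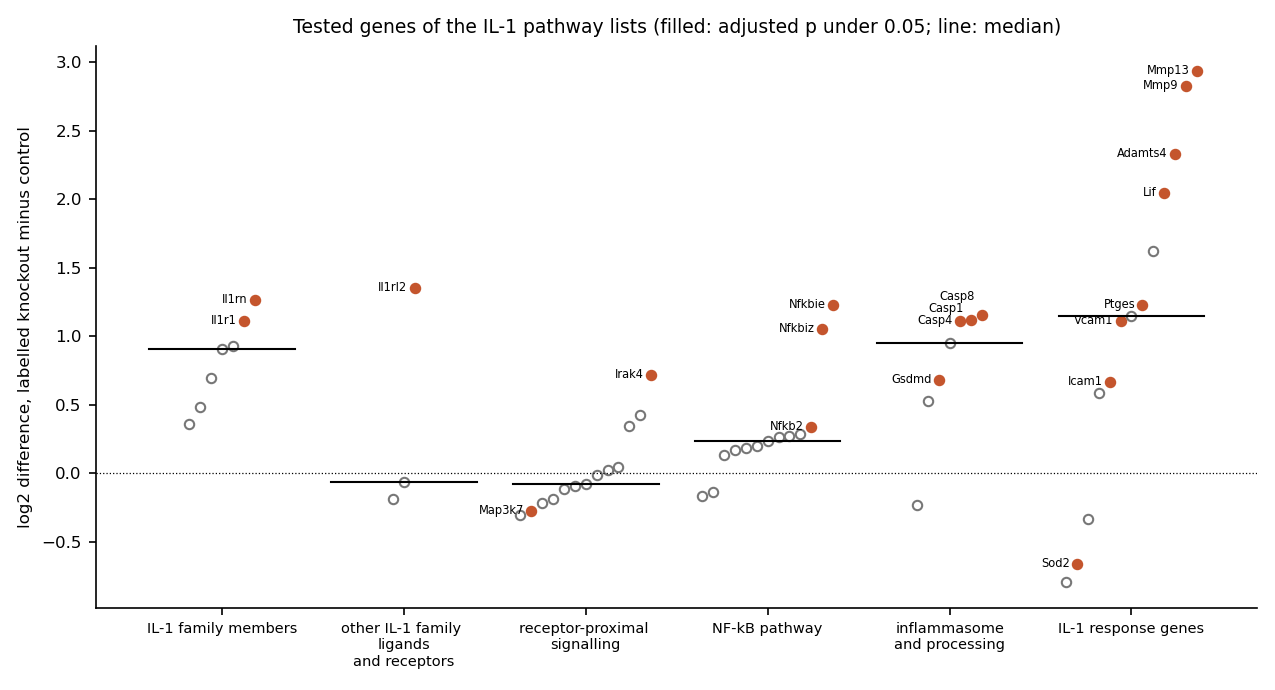
Log2 difference, labelled knockout minus control, of each tested gene, in 1 column for the members and 1 for each of the 5 pathway lists; filled points were called by limma, and the line is the median of the column. The medians are 0.95 and 1.14 in the inflammasome and IL-1 response columns, and -0.07, -0.08 and 0.24 in the other 3 lists.

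The 13 receptor-proximal signalling genes, from Myd88 to Map3k7, were all tested, and their median log2 difference was -0.08. With edgeR none was called (Irak4, edgeR adjusted p = 0.0512, and Map3k7, edgeR adjusted p = 0.0637). With DESeq2 1 was higher and 2 were lower. Irak4, the kinase that MyD88 binds, was called higher at 0.71 (limma, adjusted p = 0.0422), a call lost on dropping replicate 1, 2 or 4 of either group (limma, adjusted p = 0.0725 to 0.112). Map3k7, which encodes the kinase TAK1, was called lower at -0.28 (limma, adjusted p = 0.0490), a call lost whichever library was left out (limma, adjusted p = 0.0577 to 0.107).

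Of the 13 NF-kB pathway genes, all tested, 3 were called higher by limma, beside 11.6% of all genes tested, with a median of 0.24. None was called lower by limma, edgeR or DESeq2, or was lower at an unadjusted p under 0.05 (limma). Nfkbie, the inhibitor I-kappa-B epsilon, rose from 34.2 ± 5.02 to 81.6 ± 13.2 (SD, n = 4 each; limma, log2 difference 1.23, adjusted p = 0.00556). Nfkbiz was called at 1.05 (limma, adjusted p = 0.0239) and lost on dropping control replicate 2, or replicate 1, 2 or 4 of the labelled knockouts (limma, adjusted p = 0.0556 to 0.0734). Nfkb2 was called at 0.33 (limma, adjusted p = 0.0371) and lost without any library but control replicate 1 (limma, adjusted p = 0.0585 to 0.0934). Nfkbie was also the gene whose pattern over the 8 libraries was nearest that of Il1rn, with a root mean square difference of 0.23 in centred log2 values among 11655 genes.

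In the inflammasome and processing list, 7 of 12 genes were tested, and 4 were called higher by limma, beside 11.6% of all genes tested, with a median of 0.95. None was called lower by limma, edgeR or DESeq2, or was lower at an unadjusted p under 0.05 (limma). By edgeR 3 were called higher and by DESeq2 5, and by limma 1 was called higher on dropping replicate 1 or replicate 4 of the labelled knockouts, 2 on dropping their replicate 2, and 2 under quantile normalisation. Casp8, an apical death-receptor caspase that can also process IL-1 beta, rose from 80.9 ± 24.8 to 175 ± 14.2 (SD, n = 4 each; limma, log2 difference 1.16, adjusted p = 0.00928). Casp1, the protease that matures IL-1 beta and IL-18, rose from 27.1 ± 8.51 to 58.2 ± 9.34 (SD, n = 4 each; limma, log2 difference 1.12, adjusted p = 0.0211), a call lost without labelled knockout replicate 1 or 4 (limma, adjusted p = 0.0557 and 0.0607). Gsdmd, the pore former through which they leave the cell, rose from 133 ± 30.1 to 211 ± 19.9 (SD, n = 4 each; limma, log2 difference 0.68, adjusted p = 0.0216). That call was lost without labelled knockout replicate 1, 2 or 4 (limma, adjusted p = 0.0514 to 0.0615). Nlrp3, the sensor of the main IL-1 inflammasome, was below the filter, at 4.33, 0, 3.74 and 0 in the controls and at 18.9, 15.4, 6.52 and 15.0 in the labelled knockouts. Every labelled knockout library was above every control for Nlrp3, a gene singled out after its values were seen. Among all genes tested, 11.7% had that separation. The Nlrp3 values rest on 0 to 4 reads per control library and 6 to 19 per labelled knockout library. Nlrp1a, Nlrp1b, Nlrc4 and Mefv, also below the filter, had groups that overlapped.

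Of 22 IL-1 response genes, 13 were tested, and limma called 7 higher and 1 lower, with a median of 1.14. Over all genes tested the shares were 11.6% higher and 11.6% lower. With edgeR 5 were higher and with DESeq2 6, each with 1 lower. The 7 became 3 without control replicate 2, 4 without control replicate 4, 2 without labelled knockout replicate 1, 3 without labelled knockout replicate 4 and 4 under quantile normalisation. Mmp13, a collagenase of cartilage breakdown, rose from 1220 ± 975 to 7645 ± 4004 (SD, n = 4 each; limma, log2 difference 2.93, SE 0.59, adjusted p = 0.00993). Adamts4, an aggrecanase, rose from 25.4 ± 16.2 to 116 ± 31.7 (SD, n = 4 each; limma, log2 difference 2.33, SE 0.44, adjusted p = 0.00828). Sod2, a mitochondrial superoxide dismutase that IL-1 usually raises, fell from 5512 ± 853 to 3482 ± 484 (SD, n = 4 each; limma, log2 difference -0.66, SE 0.14, adjusted p = 0.0107). Other response genes could not be tested: Il6, Ptgs2, Cxcl1, Cxcl2, Cxcl5, Ccl2 and Saa3 were below the filter. As background, tumour necrosis factor and other signals regulate many genes of this list too.

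Markers of cell types moved between the groups too. Beside the counts below, limma called 11.6% of all genes tested higher and 11.6% lower. The shares were 11.3% and 10.9% with edgeR, and 14.3% and 13.3% with DESeq2. The summed level of 9 macrophage markers was 1455 to 3346 in the controls and 4999 to 6940 in the labelled knockouts, and 8 of the 9 rose by limma, Cd163 excepted. The 10 fibroblast markers summed to 49901 to 142437 and 183113 to 290219, with 7 higher by limma, 6 by edgeR and 8 by DESeq2. The 8 osteoclast markers summed to 1868 to 14065 and 10270 to 39329, with 7 higher by limma and 4 by edgeR and by DESeq2. Mmp9, which is also on the IL-1 response list, was called by limma alone, with adjusted p = 0.109 from edgeR and 0.104 from DESeq2. The 12 skeletal muscle markers summed to 2281795 to 2453924 and 1073628 to 1552404, with 6 lower by limma and 11 by edgeR and by DESeq2; 11 had groups that did not overlap. Whether shares of cells or RNA per cell account for the values of Il1r1, Il1rn and the other members was not tested. Nor was it tested for the pathway genes, Sod2 among them.

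Mast cell markers, which bear on Il1rl1 because mast cells carry ST2, summed to 56.5 to 151 and 109 to 206, and 1 of the 4 tested, Mcpt4, was called higher. At an unadjusted p under 0.05 (limma) 3 of the 4 were higher, and their median log2 difference was 1.32. With edgeR and with DESeq2 1 was higher. Neutrophil markers, which bear on Il1b and Il1r2, summed to 1412 to 5736 and 1128 to 2739. None of the 9 tested was called by limma, edgeR or DESeq2. All 9 had a log2 difference below 0, with a median of -0.63, and 1 was lower at an unadjusted p under 0.05 (limma). Endothelial markers summed to 4534 to 6074 and 3521 to 7336, and none of the 7 was called (limma; 0 at an unadjusted p under 0.05, by edgeR or by DESeq2). None of the 8 cartilage or 8 erythroid markers was called by limma, although 1 cartilage marker was higher and all 8 erythroid markers were lower at an unadjusted p under 0.05; edgeR called none of them, and DESeq2 called 1 cartilage marker higher and 1 erythroid marker lower. Their sums were 3680 to 11285 and 9113 to 12867 for cartilage and 16790 to 99092 and 4046 to 42624 for erythroid genes. Of the 5 tested lymphocyte markers Cd3e was lower, at sums of 89.7 to 289 and 46.7 to 314. Of the 2 tested keratinocyte markers Trp63 was lower, at sums of 220.2 to 254 and 161 to 192. Krt5, Krt14 and Krt1 were listed too but were not among the deposited genes.

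**Figure D5:**
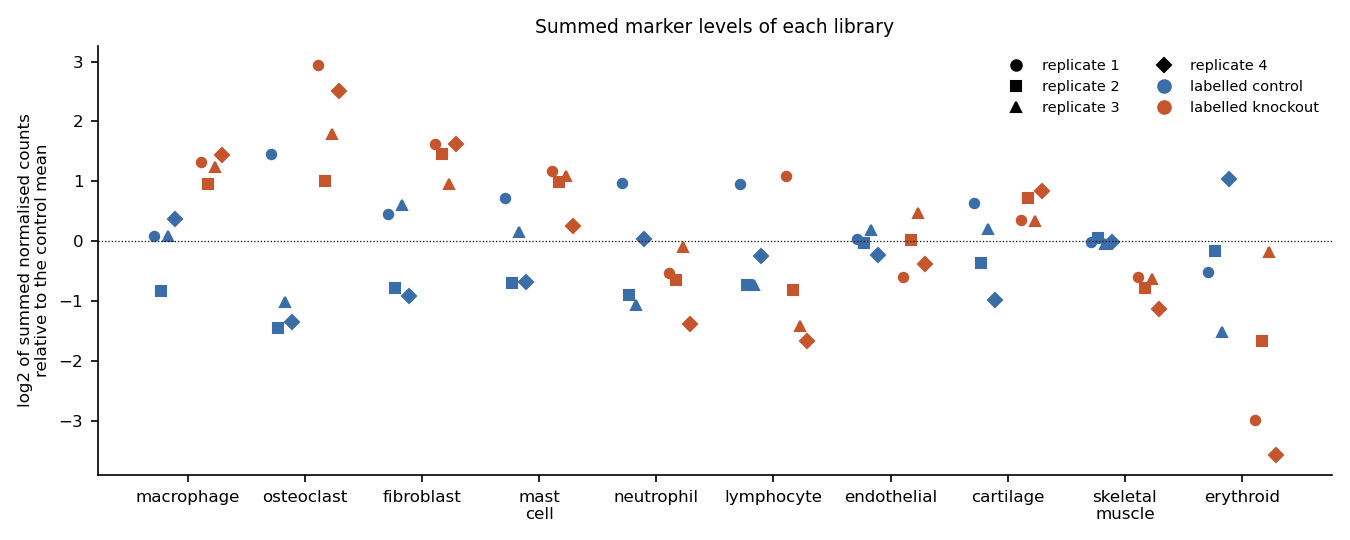
Summed normalised counts of 10 marker lists in each of the 8 libraries, as log2 relative to the control mean of the list (dotted line at 0); colours mark the labelled groups and symbols the replicates. Macrophage and fibroblast sums of the labelled knockouts lie above all controls, skeletal muscle sums lie below all controls, and the other 7 lists overlap; the keratinocyte list, of which 2 genes were tested, is not drawn, and its labelled knockout sums lie below all controls.

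Genes with the most similar pattern over the 8 libraries were found among 11655 genes with a mean of at least 50, from log2 values centred on each gene's own mean. Nearest to Il1r1 were Smo, a Hedgehog signal transducer, and Fndc3b, at root mean square differences of 0.11 and 0.12. Nearest to Il1rap were Cd53, a leukocyte tetraspanin, and P2rx4, an ATP-gated channel, at 0.15 and 0.16. Nearest to Il1rn after Nfkbie was Tmem106a at 0.29, and nearest to Il18 were Homer3 and Pid1 at 0.20 and 0.21. Nearest to Il33 were Sulf2 and Fbln2, a matrix glycoprotein, at 0.19 each. Il1rl1 had the most distant neighbours of the 7, Tshz3 and Cbr2 at 0.36 and 0.37, while Il18bp had Zfp729b and Apln at 0.10 and 0.18. These distances are descriptions over 8 libraries that share the group difference.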

How the data were processed

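Poly-A RNA of 4 control and 4 knockout knee joints was sequenced. The deposited values are a signal: gene counts divided by 1 size factor per library; per the submitters' processing notes, reads were aligned with HISAT2 to mm10 and counted with featureCounts, and per the labels DESeq2 was used by the authors. Versions are not given in the sources used here. The values came out whole when divided by a step found per library (100% of values within 0.001), so read numbers were recovered; the step of 2 libraries, replicate 2 of the controls and replicate 1 of the knockouts, is near 1 and says little. Every gene in the table had at least 10 reads over the 8 libraries.

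The main test was limma 3.58.1 (eBayes with trend) in R 4.3.3 on log2(value + 1), over genes with at least 10 in at least 4 libraries, with Benjamini-Hochberg adjustment over all genes. edgeR 4.0.16 and DESeq2 1.42.0 on recovered reads, other scalings, filters and pseudocounts, a replicate block and each library left out were alternatives. Ratios used exact permutation tests over the samples. Scripts were tested on simulated data. Named genes were all members, at most 3 called genes per pathway list by smallest p, the 2 nearest genes per tested member, Loxl2 and neighbours. Nlrp3, Mmp9 and some other genes of the pathway and marker lists were named outside this rule, Nlrp3 after its values were seen. The members and lists were chosen with earlier results of these data known. Coordinates are from GENCODE M21, promoters from RefSeq. Intervals and floors cover counting error or the spread of these samples only.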

Additional observations from a re-analysis of the deposited data

Results flagged for a closer look

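Il1b in control replicate 1 stood apart from the other controls, at a normalised count of 14.1 beside 4.04, 4.38 and 5.61. The gap was 0.843 of the group's range, above Dixon's 95% critical value for 4 samples. It was 1 of 26 groups checked, and chance flags about 1 in 20. The same library had the highest summed neutrophil markers, 5736, and the highest Il1r2, 15.1; their part in the Il1b value was not tested.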

How the results depend on the processing

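Il1r1 was called under all 18 alternatives, at log2 differences of 0.98 to 1.28, and Il1rn under all of the 17 that tested it but the replicate block. With the replicate block 2018 genes were called in place of 3461, and 1 member, Il1r1 (Il1rn, limma adjusted p = 0.0589). Same-number correlations ran from -0.23 to 0.21, and 1 of 4 pairs correlated best with its own number. With 4 libraries in each group, this check cannot exclude that the replicate numbers pair the samples. A filter at 50 left 1 member called of 2 tested. Leaving out 1 library gave 1740 to 3832 called genes, the fewest (1740) on dropping knockout replicate 4, then 1909 and 2209 on dropping control replicates 2 and 4; members called were 2 to 3. Scaling without muscle, erythroid, neutrophil and the 50 highest genes moved the median of all genes by 0.15, called 2726 of 3503 genes higher against 1732 of 3461, and called Il1rap too (limma, adjusted p = 0.0430). Il18rap turned to 0.068 under that scaling, and ranged from -0.42 to 0.45 with 1 library left out: 0.37 and 0.05 on dropping control replicates 1 and 4, 0.45 on dropping knockout replicate 4; the cause was not tested. Il1a and Il1r2 fell to -0.15 and -0.01 in some left-out fits. No ratio passed 0.05 by exact permutation under any alternative. Depth limits Il1a, Il1b and Il1r2, which gave at most 20 reads per library.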
